A study of Mus musculus with 6 samples.

Results

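Ribosomal protein genes were compared between GFP+ cortical neural progenitors and their RFP+ neuronal progeny, with the genes of the cytosolic ribosome set beside those of the mitochondrial ribosome. Members were taken by gene symbol (Rpl, Rps or Rplp followed by a number, with a few accepted suffix letters, Rpsa, and Mrpl or Mrps followed by a number) from probe sets annotated to 1 gene, and each gene was represented by its brightest probe set over the 6 arrays. This gave 133 genes of 19938 measured. The cytosolic set held 59 genes, 22 of the small 40S subunit and 37 of the large 60S subunit. The mitochondrial set held 74 genes, 26 of the small and 48 of the large subunit. Another 17 symbols of the rule, among them Rpl3, Rpl11, Rpl32 and Rps27, were carried only by probe sets that list several genes. They were left out of the counts and are described separately.

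Total RNA came from brain cells of C57BL/6J mice, sorted by fluorescence with a dual reporter, and each sample was hybridised to 1 Affymetrix whole-transcript array. The 3 GFP+ samples are labelled as cortical progenitors, and the 3 RFP+ samples as differentiated neuronal progeny from brain, with no region named. The labels give no treatment for either group. Neither the animals' age nor the promoter behind each reporter is given in the sources used here. Nothing in the labels says that the replicates came from separate animals, so a p-value here measures the spread between samples that may be technical replicates, and 3 arrays a group limit the precision. RNA of a sorted population was measured, so fewer cells expressing a gene and less RNA of it per cell cannot be told apart.

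The cytosolic ribosome is built from a 40S subunit, which decodes the mRNA, and a 60S subunit, which forms the peptide bond. Its proteins are needed in near equal amounts, and their mRNAs typically begin with a run of pyrimidines, the terminal oligopyrimidine (TOP) motif, through which mTOR signalling controls their translation. The mitochondrial ribosome is a separate particle of bacterial ancestry that translates the few proteins encoded in mitochondrial DNA, all of the respiratory chain and ATP synthase. Its proteins are encoded in the nucleus, and many have no bacterial relative. Dividing neural progenitors are generally known for high ribosome production, which the cell needs for growth.

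Array medians ran from 210.31 to 221.1 intensity units. All 8 progenitor genes checked (Sox2, Pax6, Nes, Hes5, Eomes, Vim, Mki67 and Top2a) passed as higher in GFP+ arrays, with a median log2 difference of 1.96. All 8 neuronal genes checked (among them Tubb3, Dcx and Tbr1) passed as higher in RFP+ arrays, with a median of -1.69. Markers of other cells also moved with the groups. All 10 endothelial markers passed as higher in GFP+ arrays, and their summed intensity was 2012.3 to 6715.3 there against 670.4 to 973.5 in RFP+ arrays. Of 10 pericyte and mural markers 7 passed as higher in GFP+ arrays, with sums of 5899.0 to 7430.8 against 1379.3 to 1553.8. Of 6 oligodendrocyte-lineage markers 5 did, with sums of 1527.6 to 2220.9 against 410.3 to 605.0. No microglial marker of 10 was higher in GFP+ arrays and 1 was higher in RFP+ arrays (sums 1168.8 to 1888.3 against 1640.9 to 1930.7), and none of 4 red blood cell markers passed (sums 537.1 to 1291.9 against 450.3 to 649.7; 2 passed as higher in GFP+ arrays when the replicate number was a block in the fit). No marker of these lists was at 0 on any array, but this does not show that each was detected. The 95th percentile of 1015 olfactory receptor genes, taken as near background, was 201.5 to 224.1 per array. The part of these cells in the ribosomal protein differences was not tested.

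Most ribosomal protein genes lay slightly higher in progenitors, in both sets and by small amounts. The difference between group means of log2(intensity + 16), taken as GFP+ minus RFP+, was positive for 54 of 59 cytosolic genes and 61 of 74 mitochondrial genes, against 44.5% of all genes tested. Its median was 0.27 in the cytosolic set, a 1.21-fold difference, and 0.25 in the mitochondrial set, a 1.19-fold difference, beside -0.08 over all genes. The error of a single gene was large beside these medians. The median SE of a difference was 0.21 in the cytosolic set and 0.22 in the mitochondrial set, about as large as the medians themselves. These SEs come from the fit without the replicate number and leave out a likely pairing of same-numbered arrays. With limma and Benjamini-Hochberg adjustment over all genes at a threshold of 0.05, 5 cytosolic genes (8.47%) and 11 mitochondrial genes (14.9%) passed as higher in GFP+ arrays. Of all genes tested 13.7% passed in that direction, so in this fit the cytosolic share lay below that of all genes and the mitochondrial share near it. This order turned with the fit: with the replicate number as a block 23.7% of cytosolic and 21.6% of mitochondrial genes passed as higher, beside 16.7% of all genes. No member of either set passed as higher in RFP+ arrays, where 16.2% of all genes did.

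**Figure D1:**
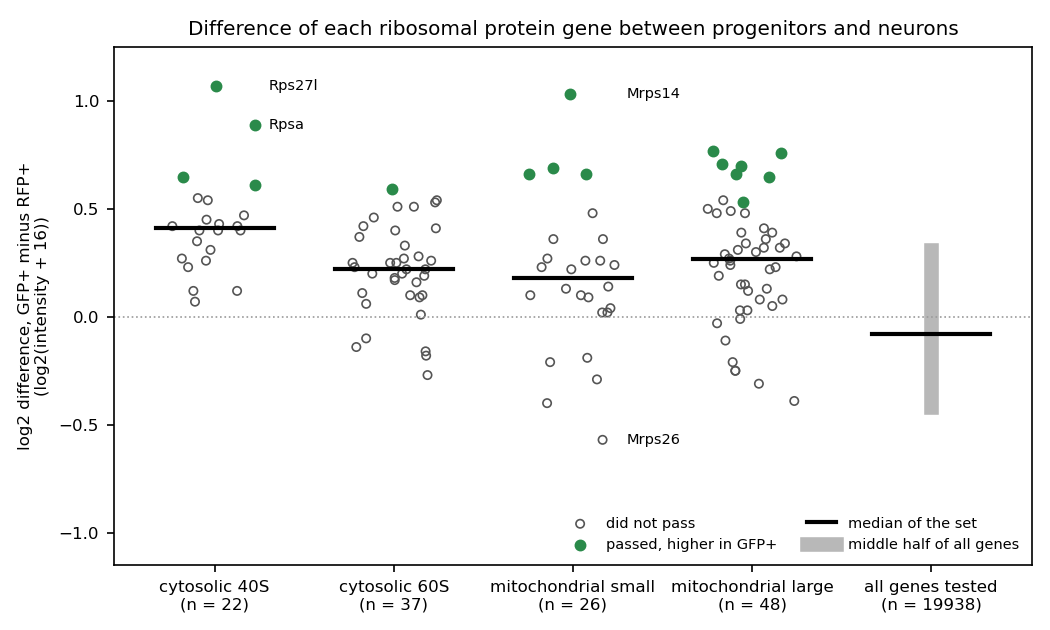
Each point is 1 gene, placed by its log2 difference, GFP+ minus RFP+, in the 4 sets of ribosomal protein genes. Filled points passed limma at an adjusted p of 0.05, black lines are medians, and the grey bar is the interquartile range of all 19938 genes (-0.42 to 0.31). The set medians lie between 0.18 and 0.41, and the highest points are Rps27l at 1.07 and Mrps14 at 1.03.

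Differences were larger among 40S than among 60S protein genes. All 22 of the 40S genes had a positive difference, with a median of 0.41 and a range of 0.07 to 1.07. Of the 37 genes for 60S proteins 32 did, with a median of 0.22 and a range of -0.27 to 0.59. In 13 of the 22 small-subunit genes and 16 of the 37 large-subunit genes every GFP+ array lay above every RFP+ array, an ordering seen in 19.9% of all genes. The difference between both subunits was not tested, and the members of a set share the same 6 arrays.

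Rpsa encodes a 40S protein that is also known as a precursor of the laminin receptor. Its intensity was 8347.4, 6955.6 and 7473.9 in the GFP+ arrays and 3942.3, 4612.1 and 3728.1 in the RFP+ arrays. The groups stood well apart, and the difference was 0.89 ± 0.20 (SE; 3 arrays against 3), or 1.85-fold, with an adjusted p of 0.00193 (limma). Rps27l is a paralog of the 40S protein gene Rps27 and a known target of p53. It measured 677.3, 752.9 and 609.3 in GFP+ arrays and 293.1, 355.1 and 301.1 in RFP+ arrays. All 3 progenitor values were above all 3 neuronal values, with a difference of 1.07 ± 0.20, or 2.09-fold, and an adjusted p of 3.65e-04 (limma). It was the cytosolic member with the largest difference and the sole one that reached 2-fold. Rps27l and Rpsa passed in all 6 fits that left out 1 array, and also without both arrays numbered 1.

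The remaining cytosolic genes that passed had smaller differences. Rps28, a small protein near the mRNA exit channel, measured 8998.2, 6501.6 and 6902.6 in GFP+ arrays and 4531.2, 5326.1 and 4322.8 in RFP+ arrays, with a difference of 0.65 ± 0.21 and an adjusted p of 0.0233 (limma). Rps29, a zinc-binding 40S protein, measured 5112.0, 3676.3 and 3309.9 against 2596.8, 3098.5 and 2144.8, with a difference of 0.61 ± 0.22 and an adjusted p of 0.0432 (limma). Rpl37a was the sole 60S gene that passed, at 5546.4, 6260.0 and 6182.6 against 3405.4, 4808.9 and 3842.4, with a difference of 0.59 ± 0.21 and an adjusted p of 0.0369 (limma). In these 3 genes no RFP+ array reached the lowest GFP+ array. Their calls were less firm: Rps28 passed in 3 of the 6 fits that left out 1 array, and Rps29 and Rpl37a in 2 each. The count of cytosolic genes passed was 3 without GFP+ array 1, 3 without GFP+ array 2, 8 without GFP+ array 3, 2 without RFP+ array 1 and 2 without RFP+ array 3. The share of all genes passed is not given for these fits. A loss of calls particular to the members thus cannot be told from a general one.

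A further 7 cytosolic genes had an adjusted p between 0.05 and 0.1, and they turned on how the replicate numbers were treated. With the replicate number as a block in the fit, 14 cytosolic genes (23.7%) passed as higher in GFP+ arrays, against 16.7% of all genes. The 9 added were these 7 (Rps12, Rps13, Rps14, Rpl24, Rpl26, Rpl27 and Rplp1) and Rps20 and Rplp2. Rps14, for example, measured 11040, 7101.0 and 6623.6 in GFP+ arrays and 6629.7, 5500.3 and 4526.3 in RFP+ arrays. Its GFP+ array 1 was the highest and its groups overlapped, since GFP+ array 3 lay just below RFP+ array 1. The difference of 0.55 ± 0.23 had an adjusted p of 0.08 without the block and 0.0247 with it (limma).

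The sequences at the transcript starts of cytosolic members are shown because a pyrimidine run there is the feature these mRNAs are known for. Each window runs from 15 bases before to 15 bases from the annotated start (RefSeq promoters, GRCm38.p6, 5′ to 3′ on the gene's strand). Capitals mark a C followed by at least 4 C or T that begins within 5 bases of the start. The first 5 windows were picked because they hold a run, and none of their genes passed without the replicate block. The last 5 windows belong to 4 genes that passed, and 1 of the 5 held a run, the upstream start of Rps27l. Rps29, which also passed, had no promoter to show. Over all cytosolic members a run was found in 20 of 56 promoters by this rule. A run that begins farther than 5 bases from the annotated start was not counted.
Rps6, chr4:86857353-86857382, minus strand: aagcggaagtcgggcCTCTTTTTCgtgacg
Rps18, chr17:33955651-33955680, minus strand: tacgtcacttccgctCTCTCTTCCacagga
Rpl28, chr7:4792950-4792979, plus strand: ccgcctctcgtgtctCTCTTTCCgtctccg
Rpl38, chr11:114668565-114668594, plus strand: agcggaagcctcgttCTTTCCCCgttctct
Rplp2, chr7:141447636-141447665, plus strand: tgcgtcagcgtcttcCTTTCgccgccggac
Rps27l, upstream start, chr9:66946071-66946100, plus strand: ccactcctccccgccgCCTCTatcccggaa
Rps27l, downstream start, chr9:66946398-66946427, plus strand: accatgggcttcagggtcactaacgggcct
Rpsa, chr9:120127751-120127780, plus strand: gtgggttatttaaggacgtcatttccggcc
Rps28, chr17:33824548-33824577, minus strand: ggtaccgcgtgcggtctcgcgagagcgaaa
Rpl37a, chr1:72711245-72711274, plus strand: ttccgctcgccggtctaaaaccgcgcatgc

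Such a run was found in 35.7% of the 56 promoters of 47 cytosolic members, in 23.9% of the 71 promoters of 65 mitochondrial members and in 18.3% of all 32851 promoters of the table. Annotated starts can lie a few bases from the one used in these cells. A window without capitals says only that no run begins within 5 bases of the annotated start. Of the members whose run is printed, Rps6, whose protein is the classic substrate of S6 kinase, had a difference of 0.26 ± 0.20 with overlapping groups. Rps18 (0.35 ± 0.22) and Rpl28 (0.33 ± 0.20) had GFP+ arrays all above RFP+ arrays, and none of these 3 passed (adjusted p = 0.341, 0.229 and 0.223, limma). Rpl38, a protein known for its part in translating Hox mRNAs, stood at 0.23 ± 0.21 with overlapping groups.

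The P-stalk, the arm of the 60S subunit that recruits elongation factors, is made of Rplp0 and copies of Rplp1 and Rplp2, and its genes lay unequally. Rplp0 measured 10422, 13770 and 13087 in GFP+ arrays and 10209, 13913 and 12898 in RFP+ arrays. Its groups covered the same range, and its difference was 0.01 ± 0.21, which turned to -0.03 when arrays were centred on their medians. Rplp1 measured 8923.3, 11557 and 8268.6 against 6437.0, 7742.4 and 5704.4, with every GFP+ array above every RFP+ array and a difference of 0.53 ± 0.21 (adjusted p = 0.068, limma; 0.0239 with the replicate block). Rplp2 stood at 0.46 ± 0.21 (adjusted p = 0.11, limma; 0.0489 with the block). Whether Rplp0 differed from its partners was not tested.

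Other 60S proteins of known roles did not pass. Rpl5, which carries the 5S rRNA into the ribosome and can bind Mdm2, measured 11453, 11529 and 11582 in GFP+ arrays and 8994.8, 10968 and 9238.5 in RFP+ arrays. The GFP+ values were close together and above all RFP+ values, yet the difference of 0.25 ± 0.20 had an adjusted p of 0.36 (limma). Rpl10, a late-joining protein at the subunit interface, stood at 0.17 ± 0.21, and Rpl22 at 0.26 ± 0.20. In the small subunit, Rps19, whose human counterpart is the gene most often mutated in Diamond-Blackfan anaemia, measured 794.5, 816.6 and 619.7 against 526.0, 797.3 and 499.0. Its groups overlapped, with a difference of 0.31 ± 0.22 (adjusted p = 0.314, limma). Rps25 and Rps4x each stood at 0.40 ± 0.20 with GFP+ arrays above RFP+ arrays, and neither passed (adjusted p = 0.149 and 0.146, limma).

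**Figure D2:**
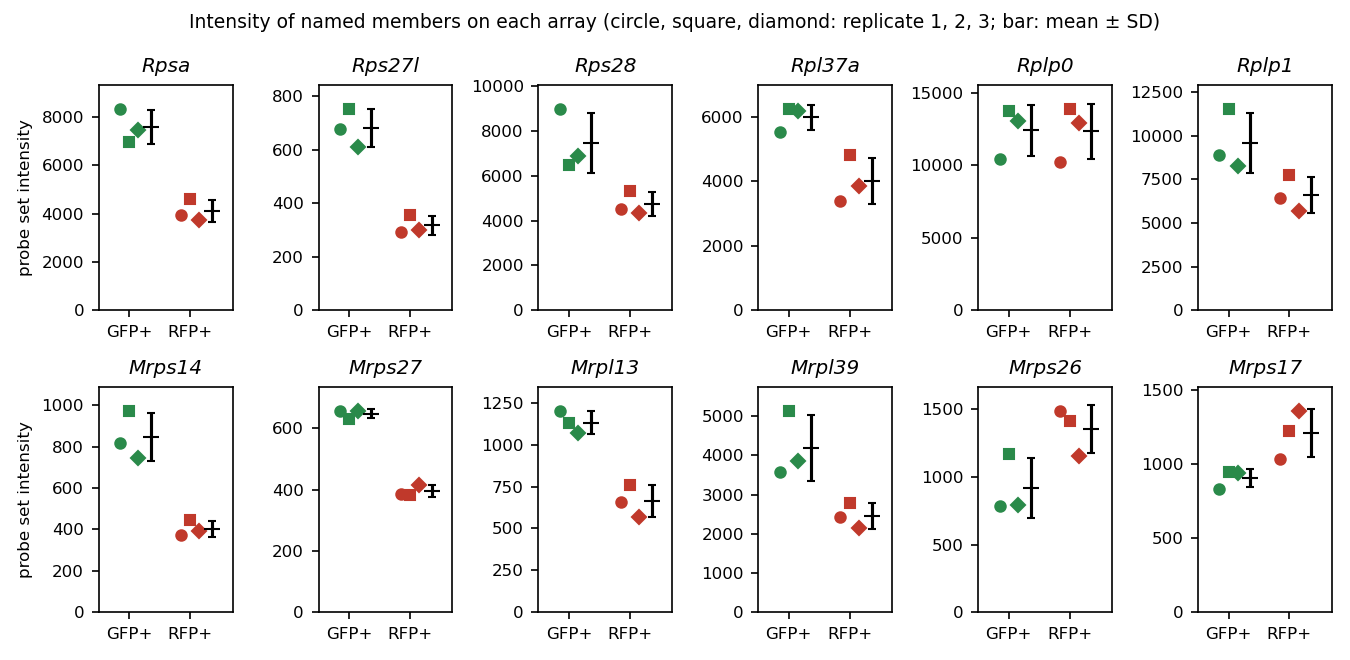
Intensity (linear axis from 0) of 12 named genes on each array, GFP+ in green and RFP+ in red, with the mean ± SD of 3 arrays beside each group. Rpsa, Rps27l and Mrps14 show groups that stand apart, Rplp0 shows groups over the same range, and Mrps26 and Mrps17 have the higher group mean in RFP+.

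The 5 cytosolic genes with a negative difference were mostly paralogs or dim probe sets. Rpl3l, a paralog known from heart and skeletal muscle, measured 118.3, 139.0 and 74.6 in GFP+ arrays and 121.0, 134.3 and 105.4 in RFP+ arrays. It was the sole member below the near-background level on all 6 arrays, taken as the 95th percentile of 1015 olfactory receptor genes (201.5 to 224.1 per array), so its difference of -0.14 describes near-background signal. Rpl10l and Rpl39l, paralogs known from the testis, stood at -0.18 and -0.16, and Rpl30 at -0.10. Rpl10l took its sign from 1 array: it measured 2178.6, 1765.5 and 783.5 against 1680.9, 1601.2 and 1653.0, and without GFP+ array 3 the difference was 0.25. Rpl39l was 0.03 without RFP+ array 1, and Rpl3l was 0.09 without GFP+ array 3. Rpl7a, a canonical 60S protein gene, had the lowest difference of the set, -0.27 ± 0.24 (adjusted p = 0.408, limma). Its 2 other probe sets stood at -0.01 and 0.11, and the brightest probe set that lists it beside other genes at 0.04. Leaving out the 6 paralogs whose symbols end in l gave 53 genes, 51 of them positive, with the same median of 0.27.

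Ribosomal protein genes have many near-identical processed copies in the mouse genome, and which copies a probe set detects was not analysed here. The annotation gave 39 of the 59 cytosolic genes more than 1 probe set, so the choice of the brightest could be checked against the rest. Of the 156 probe sets not used, 153 had a positive difference, with a median of 0.32. Of the same 156, 16 passed as higher in GFP+ arrays and none as lower, in a fit over all single-gene probe sets. In the fit with 1 probe set a gene, 13.7% of all genes passed as higher and 16.2% as lower. Rps12 alone gave 13 of the 156 and Rpl23a 12. All 6 further probe sets of Rps28 passed, at 0.61 to 0.68. Of the 4 further probe sets of Rpsa 2 passed, and all 4 (0.33 to 0.65) lay below the 0.89 of the brightest. For Rps9 the brightest probe set gave 0.42 and did not pass, and the other gave 0.87 and passed. Probe sets annotated to 1 gene can share sequence, so those of a gene are not replicates.

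**Figure D3:**
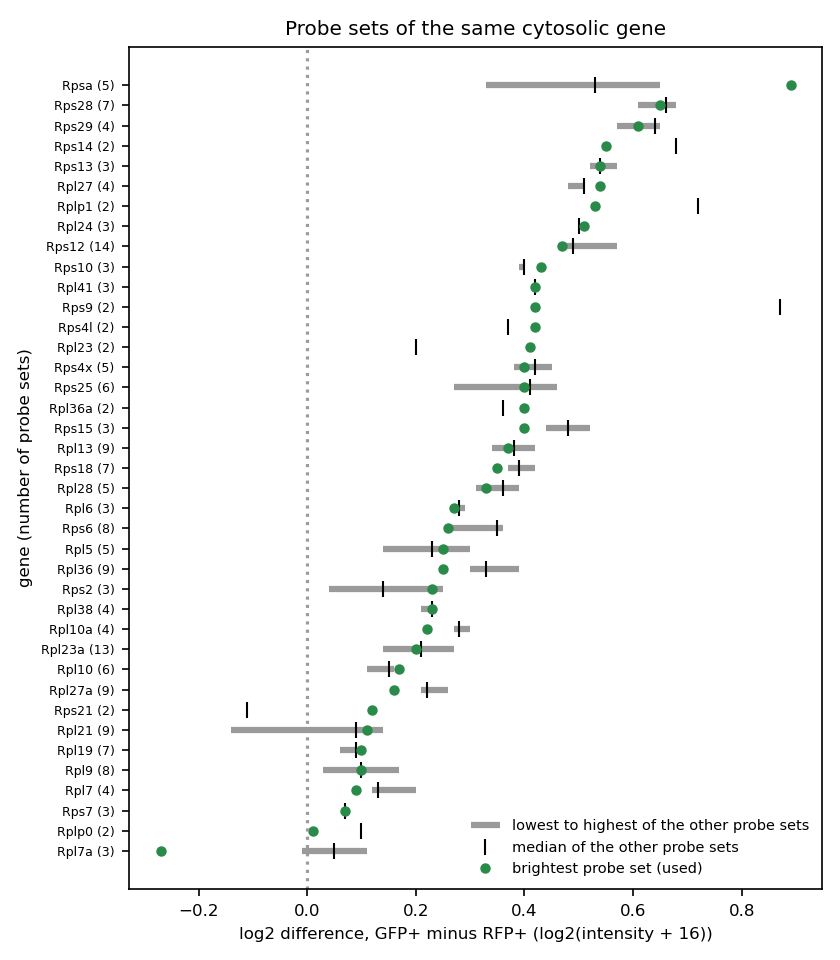
Log2 difference, GFP+ minus RFP+, of the brightest probe set (green) and of the other probe sets (grey range, black median) for the 39 cytosolic genes with several. The brightest probe set of Rpsa lies above its others (0.33 to 0.65), Rps28 is alike in all 7, and Rpl7a at -0.27 lies below its others.

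For the 17 symbols found only on probe sets that list several genes, the brightest such probe set of each had a positive difference, from 0.03 to 0.64 with a median of 0.22. Rpl11, the partner of Rpl5 in the 5S particle, had the largest, with 7511.6, 7922.1 and 7010.8 in GFP+ arrays and 3718.9, 5949.5 and 4963.4 in RFP+ arrays. Rpl32 stood at 0.37, Rps27 at 0.22 and Rpl3 at 0.12. Every such probe set was positive for 14 of the 17 symbols. For Rpl17 it was 1 of 17 (-0.31 to 0.03), for Rpl13a 2 of 4 (-0.39 to 0.23) and for Rpl31 8 of 9 (-0.29 to 0.20). For 12 members a probe set that lists several genes was brighter than the one used, and for 2, Rpl12 and Rpl30, over 4 times brighter. The probe set used for these 2 was dim (means of 278.4 and 429.5), with differences of 0.22 and -0.10. The brightest probe sets that list them beside other genes had differences of 0.34 and 0.05.

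In the mitochondrial set, 11 genes were higher in progenitors, 7 of the large subunit and 4 of the small. Mrps14, the mitochondrial relative of bacterial S14, had the largest difference. It measured 816.1, 971.8 and 747.0 in GFP+ arrays and 372.9, 445.2 and 391.1 in RFP+ arrays, and every GFP+ value was far above every RFP+ value. The difference was 1.03 ± 0.20, or 2.05-fold, with an adjusted p of 5.28e-04 (limma). Mrps27, a small-subunit protein with no bacterial relative, had the tightest groups of those that passed in the small subunit, at 656.5, 631.4 and 656.4 against 387.0, 382.0 and 416.3. Its difference was 0.69 ± 0.19, with an adjusted p of 0.0103 (limma). Mrps25 and Mrps28 each stood at 0.66, with adjusted p of 0.0176 and 0.0292 (limma).

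The large-subunit genes that passed spanned 0.53 to 0.77. Mrpl13, the relative of bacterial L13, measured 1200.2, 1127.2 and 1066.0 in GFP+ arrays and 657.7, 761.5 and 567.9 in RFP+ arrays, with a difference of 0.77 ± 0.20 and an adjusted p of 0.00668 (limma). Mrpl39, a mitochondrion-specific protein, measured 3586.1, 5135.3 and 3847.9 against 2427.9, 2794.6 and 2155.2, with a difference of 0.76 ± 0.21 and an adjusted p of 0.0103 (limma). In both genes the groups were apart, and in Mrpl39 GFP+ array 2 was the highest by a wide margin. The other 5 were Mrpl54 at 0.71, Mrpl33 at 0.70, Mrpl2 at 0.66, Mrpl35 at 0.65 and Mrpl48 at 0.53, with adjusted p of 0.0267, 0.0176, 0.0221, 0.022 and 0.0469 (limma). Mrps14, Mrps27 and Mrpl13 passed in all 6 fits that left out 1 array. Mrpl48 passed in 1 of them, Mrpl35 in 2, and the other 6 in 3 or 4. The count of mitochondrial genes passed was 5 without GFP+ array 2 (4 of them higher in GFP+), 5 without RFP+ array 1 and 7 without RFP+ array 3 (6 of them higher in GFP+). Here too the share of all genes passed is not given, so these counts do not single out the members.

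With the replicate block 16 mitochondrial genes (21.6%) passed as higher in GFP+ arrays and 1 as higher in RFP+ arrays, against 16.7% and 20.3% of all genes. The 5 added on the GFP+ side were Mrpl3, Mrpl10, Mrpl21, Mrpl42 and Mrps35. Mrps26, a mitochondrion-specific small-subunit gene, was the one on the other side. It measured 783.7, 1171.7 and 793.1 in GFP+ arrays and 1487.7, 1416.3 and 1154.2 in RFP+ arrays, so RFP+ array 3 lay just below GFP+ array 2. The difference of -0.57 ± 0.22 had an adjusted p of 0.0534 without the block and 0.0315 with it (limma). Mrps17, the relative of bacterial S17, was the sole member whose RFP+ arrays all lay above the GFP+ arrays, at 1036.2, 1223.5 and 1357.0 against 832.9, 943.1 and 936.6. Its difference of -0.40 ± 0.20 did not pass (adjusted p = 0.141, limma).

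Of the mitochondrial members that did not pass, Mrpl12, which is reported to bind the mitochondrial RNA polymerase, stood at 0.34 ± 0.22 with overlapping groups, and Mrpl3 at 0.50 ± 0.21 (adjusted p = 0.0791, limma; 0.0328 with the block). Mrps5 stood at 0.24 ± 0.20, and its other probe set at -0.36. Mrps12, Mrps16, Mrps22, Mrps6, Mrpl37 and Mrpl44 had differences of 0.02 to 0.15 with overlapping groups, and each turned negative when a single array, or for Mrps16 both arrays numbered 1, was left out, as Mrps12 also did after quantile normalization or median centring. Mrpl44 was the most uneven of them, at 402.9, 1074.8 and 685.9 in GFP+ arrays against 563.8, 642.0 and 598.2, and its difference was -0.19 without GFP+ array 2. The 8 further probe sets of mitochondrial genes had a median of -0.27, 2 of them were positive, and none passed, whereas nearly all further probe sets of cytosolic genes were positive. The negative ones include those of Mrpl23, Mrpl41, Mrpl47 and Mrps36. For these genes the probe set used was negative too (-0.25, -0.25, -0.31 and -0.19). The sign differed between probe sets for Mrps5 and for Mrpl51 (0.34 with the one used, -0.07 with the other).

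Proteins that the mitochondrial ribosome shares with bacteria and those it gained later were split by number, taking Mrpl up to 36 and Mrps up to 21 as the bacterial type. This split was chosen after the values were seen and approximates the protein families. Of 41 genes of the bacterial type 5 passed as higher in GFP+ arrays, or 12.2%, with a median of 0.24, and of 33 mitochondrion-specific genes 6 passed, or 18.2%, with a median of 0.26, beside 13.7% of all genes. Within the small subunit the medians were 0.14 for the bacterial type and 0.26 for the specific genes, and within the large subunit 0.28 and 0.25. These differences were not tested. The genes with the widest negative differences, Mrps26 (-0.57), Mrps17 (-0.40) and Mrpl52 (-0.39), came from both types.

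Promoter stretches of some mitochondrial members that passed, and of Rpsa, are shown with the motifs of nuclear factors known for genes of mitochondria and of translation. Apart from Mrps14, they were picked because a motif lies upstream of the start. Of the 13 promoters of mitochondrial genes that passed, 3 held the ETS core and 1 the NRF1 motif. Mrpl48 has further annotated starts, which are not shown. Capitals mark CCGGAAG (the core bound by ETS factors such as GABP) or the palindromic NRF1 motif, searched on both strands. The start window of Mrps14, which holds neither motif, is the last.
Rpsa, chr9:120127568-120127696, plus strand: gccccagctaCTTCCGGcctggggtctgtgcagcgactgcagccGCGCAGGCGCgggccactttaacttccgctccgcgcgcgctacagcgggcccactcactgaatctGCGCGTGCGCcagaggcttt
Mrpl39, chr16:84735350-84735379, minus strand: aaggagaggcGCGCATGCGCccccgcgtgg
Mrps27, chr13:99344728-99344754, plus strand: ggtaggaccaCTTCCGGcggaggcggg
Mrpl48, chr7:100583148-100583174, minus strand: gttttaaaaaCTTCCGGaaccaagatg
Mrps14, chr1:160195200-160195229, plus strand: ccccgcctccacagaacctgtttccggtgt

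The ETS core was found in 33.9% of cytosolic and 31.0% of mitochondrial promoters, against 8.86% of all promoters of the same length (250 bases before to 50 from the start). The NRF1 motif was in 7.14% of cytosolic and 18.3% of mitochondrial promoters, against 4.60% of all. A YY1 motif was in none of the 56 cytosolic and 5.63% of mitochondrial promoters, against 0.852%. The E-box CACGTG, bound by Myc and Max, was in 12.5% and 8.45%, against 7.15%. These are letter matches and carry no test, and 112 of the 133 members had a promoter in the table. Among the genes that passed, 4 cytosolic and 8 mitochondrial had one, too few to set against the rest.

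How many members passed varied with the processing more than the medians did. An intensity trend with robust moderation in limma passed 21 cytosolic genes (35.6%), all as higher in GFP+ arrays, and 17 mitochondrial genes, 16 (21.6%) as higher and Mrps26 as lower, beside 15.6% and 17.9% of all genes in these directions. Quantile normalization of the arrays passed 12 cytosolic (20.3%) and 11 mitochondrial (14.9%) genes as higher, beside 14.6% of all. Leaving out the dimmest 30% of genes passed 11 of 58 cytosolic (19.0%) and 13 mitochondrial (17.6%) genes as higher, beside 19.5%. Without both arrays numbered 1 the genes that passed were Rps27l, Rpsa, Mrps14 and Mrpl39, while 19.3% of all genes passed in either direction. The set medians lay between 0.15 and 0.36 in all settings run.

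Set side by side, both ribosomes had nearly the same median difference but not the same spread. The SD of the differences over genes was 0.24 in the cytosolic and 0.31 in the mitochondrial set, against 0.74 over all genes. Every GFP+ array lay above every RFP+ array in 49.2% of cytosolic genes and 27.0% of mitochondrial genes, against 19.9% of all genes. None of the cytosolic genes and 1 of the mitochondrial genes had the opposite order, which 24.1% of all genes had. No test of this contrast was made, since the genes of a set share their arrays. Across genes, which are not replicates, the difference did not follow the mean level (Pearson's r = 0.09 over 59 cytosolic and -0.04 over 74 mitochondrial genes).

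The median intensity of cytosolic genes was 7673.8, 6420.0 and 6182.6 in GFP+ arrays and 5065.9, 5191.1 and 4383.6 in RFP+ arrays. The 2 groups did not overlap. The median intensity of mitochondrial genes was 1010.9, 1148.8 and 858.6 in GFP+ arrays and 873.4, 878.0 and 752.5 in RFP+ arrays. Here GFP+ array 3 fell within the RFP+ range. Between arrays of the same number the median was higher in GFP+ for all 3 numbers in both sets, by 0.60, 0.31 and 0.49 on the log2(intensity + 16) scale for cytosolic and by 0.21, 0.38 and 0.19 for mitochondrial genes. On the log2(intensity + 16) scale the shift of the cytosolic median over the mitochondrial one was 2.90, 2.47 and 2.83 in GFP+ arrays and 2.51, 2.54 and 2.52 in RFP+ arrays, so the spread within GFP+ spanned the RFP+ values.

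**Figure D4:**
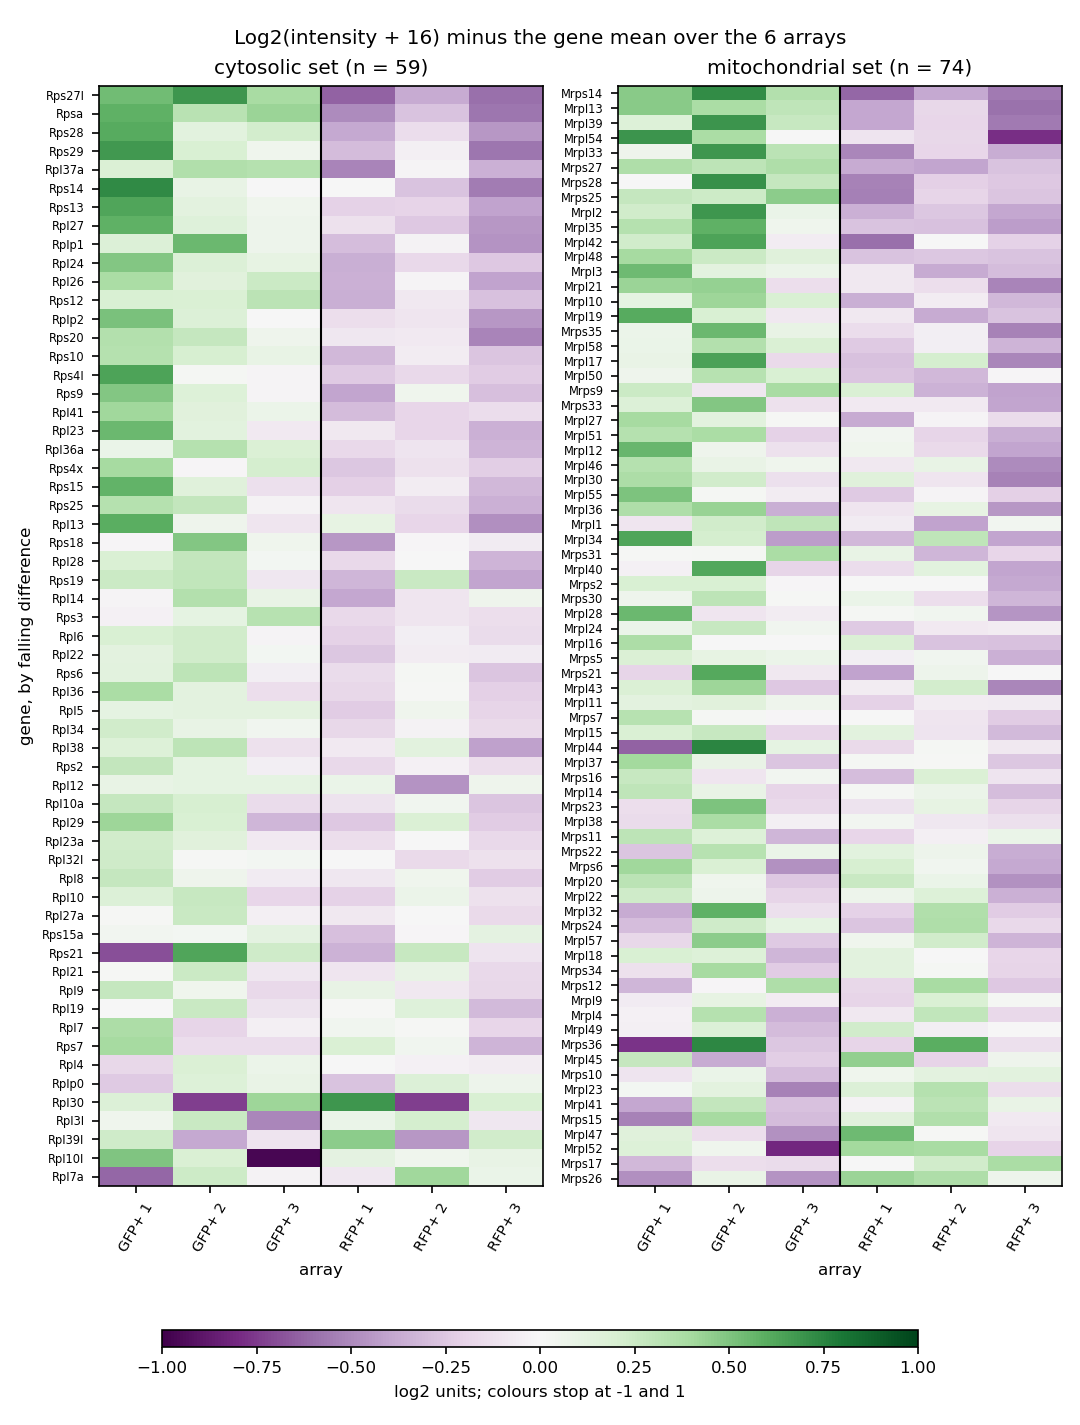
Log2(intensity + 16) of every member minus its mean over the 6 arrays, with genes ordered by falling difference, cytosolic on the left and mitochondrial on the right. In both sets GFP+ columns are greener than RFP+ columns, arrays numbered 3 are paler or more purple within their group, and the order is looser in the mitochondrial set.

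Within each group many genes of both sets had the same array lowest. Among GFP+ arrays, array 3 was the lowest for 38 of 59 cytosolic and 46 of 74 mitochondrial genes. Among RFP+ arrays, array 3 was the lowest for 31 and 46 of them. The highest array differed between the sets in the GFP+ group: array 1 was highest for 32 cytosolic genes and array 2 for 42 mitochondrial genes. In the RFP+ group array 2 was highest for 42 cytosolic and 40 mitochondrial genes. The same number was highest in both groups for 31 of 59 cytosolic and 42 of 74 mitochondrial genes. None of these counts was taken over all genes. Deviations of same-numbered arrays also correlated over all genes (0.204 to 0.361), so the agreement is not particular to the members. The labels do not say what the numbers mark.

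Ribosomal proteins that carry other names, and the genes that make and serve ribosomes, were counted in the same fit. Of 3 cytosolic ribosomal protein genes with other symbols, Fau, whose product includes the 40S protein eS30, passed as higher in GFP+ arrays. It measured 7172.0, 6538.8 and 5926.1 against 4405.2, 4492.3 and 3315.0, with a difference of 0.69 ± 0.21 (adjusted p = 0.0154, limma). Of 7 mitochondrial ribosome subunits with other symbols, Dap3, a GTP-binding protein of the small subunit, passed as higher in RFP+ arrays. It measured 964.5, 1219.2 and 1063.2 in GFP+ arrays and 1671.9, 1739.9 and 1953.4 in RFP+ arrays, with a difference of -0.72 ± 0.20 (adjusted p = 0.00989, limma). The 1 of 3 cytosolic genes is 33.3%, beside 13.7% of all genes higher in GFP+ arrays. The 1 of 7 mitochondrial genes is 14.3%, near the 16.2% of all genes higher in RFP+ arrays. Dap3 stood opposite to all mitochondrial members that passed, and the median of its list was 0.01. Its call held with the replicate block, where another subunit of that list also passed, as higher in GFP+ arrays. That fit passed 16.7% of all genes as higher in GFP+ arrays and 20.3% as higher in RFP+ arrays.

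In 4 lists of ribosome production the share passed as higher in GFP+ arrays lay on both sides of the share of all genes. Of 16 genes of rRNA transcription by RNA polymerase I 3 passed as higher in GFP+ arrays and 1 as higher in RFP+ arrays, with a median of 0.19. Polr1c (0.96) and Polr1a (0.79) are polymerase subunits on the GFP+ side, and Polr1d, also a subunit, stood at -0.64. Of 41 genes of snoRNP function and pre-rRNA processing 5 passed as higher in GFP+ arrays and none as lower, with a median of 0.26, led by the processome protein Utp20 (0.86) and the box H/ACA protein Nhp2 (0.76). Of 42 genes of 60S assembly 3 were higher and 1 was lower, with a median of 0.21, and of 14 genes of 40S assembly 2 were higher and 1 lower, with a median of 0.11. Ltv1, a 40S assembly factor, measured 1139.4, 1147.8 and 1034.0 in GFP+ arrays and 594.1, 530.0 and 457.3 in RFP+ arrays, a difference of 1.05 ± 0.20 (adjusted p = 3.99e-04, limma). The share passed as higher was 18.8%, 12.2%, 7.14% and 14.3% in these 4 lists, beside the 13.7% of all genes. With the replicate block the counts higher and lower were 4 and 2 for RNA polymerase I, 9 and 1 for snoRNP and pre-rRNA processing, 10 and 2 for 60S assembly and 3 and 1 for 40S assembly, beside 16.7% of all genes higher and 20.3% lower.

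Factors that work on the cytosolic ribosome were mixed. Of 34 initiation factors 1 passed each way, Eif4h (0.62) and Eif4a2 (-1.07), both partners in mRNA unwinding, and the median was 0.01. Of 13 elongation and release factors 2 were higher in GFP+ arrays, Eef1d (0.75) and Gspt2 (0.72), and 1 was lower. That was Eef1a2, the elongation factor form known from neurons and muscle, at 231.7, 289.6 and 215.2 in GFP+ arrays and 1375.3, 1568.8 and 1306.3 in RFP+ arrays, a difference of -2.46 ± 0.20 (adjusted p = 1.94e-08, limma). Of 22 genes of the mTOR pathway and of TOP mRNA control 2 were higher and 3 lower, with a median of 0.04. Eif4ebp1, a translation repressor that mTOR phosphorylates, stood at 1.24 and Cnbp, an RNA-binding protein reported to bind TOP mRNAs, at 1.05, whereas Rhebl1 stood at -1.09 and Tsc1 at -0.62. With the replicate block 3 initiation factors and 4 elongation and release factors were higher and 1 of each lower, and 4 mTOR and TOP genes passed each way. Of all genes 16.7% were higher and 20.3% lower with the block. In the fit without the block, the share passed as higher in these 3 lists was 2.94%, 15.4% and 9.09%, beside 13.7% of all genes, and as lower 2.94%, 7.69% and 13.6%, beside 16.2%.

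Of 12 genes of the Myc network none was higher in GFP+ arrays and 3 were higher in RFP+ arrays, with a median of -0.13. Myc itself measured 562.3, 655.6 and 372.7 in GFP+ arrays and 1614.1, 1506.2 and 991.1 in RFP+ arrays, a difference of -1.35 ± 0.24 (adjusted p = 2.14e-04, limma). Of 9 genes of the p53 response in general, Zmat3 (0.78) and Sesn2 (0.67) were higher in GFP+ arrays and Ccng1 (-0.78) was lower, with a median of 0.02. With the replicate block 5 Myc network genes were higher in RFP+ arrays, and the p53 list gave 2 passed each way. In that fit 16.7% of all genes were higher in GFP+ arrays and 20.3% in RFP+ arrays. Without the block 3 of the 12 Myc network genes and 11.1% of the p53 list passed as higher in RFP+ arrays, beside 16.2% of all genes, and 22.2% of the p53 list as higher in GFP+ arrays, beside 13.7%.

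On the mitochondrial side the accessory lists were also mixed. None of 14 mitochondrial translation factors passed with limma (1 each way with the replicate block), and their median was -0.11. The 27 genes of mitochondrial ribosome assembly and rRNA modification gave 4 higher and 4 lower, with a median of 0.09. Tfb1m, the methyltransferase of the small-subunit rRNA, stood at 1.17 and Mettl15 at 0.97, whereas the assembly factors Mpv17l2 and Rbfa stood at -0.92 and -0.77. Of 16 mitochondrial aminoacyl-tRNA synthetases 3 were higher, among them Aars2 (0.65) and Ears2 (0.63), and Cars2 (-0.91) and Mars2 (-0.76) were lower, with a median of 0.24. Of 14 biogenesis factors 6 were higher and 1 was lower, with a median of 0.35. Ppargc1a, the coactivator of mitochondrial biogenesis, measured 410.8, 524.7 and 399.5 against 220.6, 227.5 and 140.0, a difference of 1.14 ± 0.22 (adjusted p = 5.04e-04, limma). Gabpb2, a subunit of the ETS factor GABP, stood at 1.09, and the nuclear receptor Esrra at -0.61. With the block the biogenesis counts stayed at 6 and 1, those of mitochondrial ribosome assembly were 5 each way, and the synthetases gave 4 higher and 2 lower. The block passed 16.7% of all genes as higher and 20.3% as lower. In the fit without the block the share passed as higher was 14.8% for assembly, 18.8% for the synthetases and 42.9% for biogenesis factors, beside 13.7% of all genes. The share passed as lower was 14.8%, 12.5% and 7.14%, beside 16.2%.

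**Figure D5:**
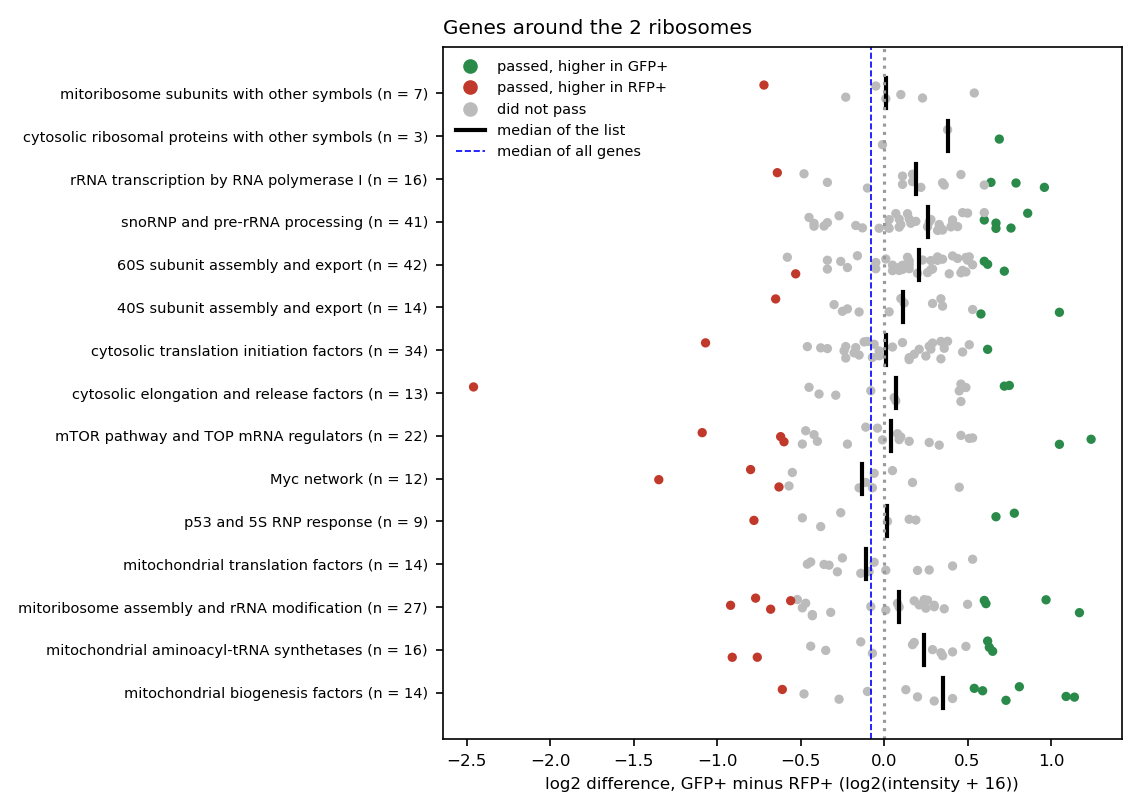
Log2 difference, GFP+ minus RFP+, of every measured gene of 15 lists around both ribosomes, with list medians in black and the median of all genes (-0.08) dashed. Green points passed as higher in GFP+ arrays and red points as higher in RFP+ arrays. Eef1a2 at -2.46 is the point farthest to the left.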

How the data were processed

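Probe set intensities were used on the linear scale in which the authors deposited them. Per the submitters' processing notes they came from the Affymetrix Expression Console. Version, background correction, normalization and summarisation: not given in the sources used here. Of 35557 probe sets, 21789 carried 1 gene symbol, 1621 several and 12147 none here, and 21698 of those with 1 matched by Entrez ID with 0 symbols updated. The brightest probe set by mean log2(intensity + 16) stood for each of 19938 genes, with no filter. The test on log2(intensity + 16) used limma 3.58.1 in R 4.3.3 (lmFit, eBayes, two-sided, prior degrees of freedom 15.5), with Benjamini-Hochberg adjustment over all genes at 0.05. The median SE over all genes was 0.215. The fit was tested on simulated data. Summaries used Python 3.11.15.

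Replicate numbers in the titles were checked for pairing. Across genes, deviations from the group mean correlated between same-numbered GFP+ and RFP+ arrays at 0.204, 0.288 and 0.361. Between different numbers they correlated at -0.267 to 0.00422, so the numbers were taken as likely pairs of samples. The unpaired fit remained the main one, as written in the design. Its SE and adjusted p, given wherever the block is not mentioned, leave this pairing out. The fit with the number as a block is given where it changes a call.

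Members and lists were chosen with earlier results of these data known. Named members are those past the threshold without overlap (up to 6 a subset and direction), the 2 brightest and 2 dimmest of each set, and a list fixed by name. For each pathway list the 2 passing genes with the largest difference each way are named. Some names fall outside this rule in whole or in part and were chosen after their values were seen. They are Rps14, Rps9, Rps28's other probe sets, Rpl7a, Rpl12, Rpl17, Rpl23a, Rpl28, Rpl30 and Rpl31. On the mitochondrial side they are Mrps17, Mrps26, Mrps36, Mrpl23, Mrpl41, Mrpl47, Mrpl48, Mrpl51 and Mrpl52. The members added by the block also belong to them. Beyond picking the brightest or flagging a brighter one, levels were not compared between probe sets. Promoter letters were searched in RefSeq windows for the ETS core, the motifs of NRF1 and YY1, the E-box and a pyrimidine run at the start. Protein sequences were not used here.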

Additional observations from a re-analysis of the deposited data

How the results depend on the processing

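The median difference of both sets was positive in all settings run. It was 0.20 to 0.36 in the cytosolic and 0.15 to 0.32 in the mitochondrial set. Leaving out 1 array gave 2 to 8 cytosolic and 5 to 13 mitochondrial genes passed. For these fits, and for log2(intensity + 1), the share of all genes passed is not given. The cytosolic count of 5 became 3 with log2(intensity + 1), 11 without the dimmest 30% of genes, 12 after quantile normalization, 14 with the replicate block, 21 with a trend of variance on intensity, and 2 without both arrays numbered 1. The mitochondrial count of 11 became 17 with the replicate block, 17 with the trend and 2 without both arrays numbered 1. The block ended no call of a member and changed none other than those named in the report. Why the counts moved was not tested. Leaving out the dimmest genes tested 13957 genes. No member passed as higher in RFP+ except in some mitochondrial settings, with at most 1 each.

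Over named genes and settings 992 values kept their direction and call, 121 lost the call, 12 gained it and 22 changed sign. Median centring gave -0.02 for Mrps12 and -0.03 for Rplp0, quantile normalization -0.02 for Mrps12, the mean of probe sets -0.06 for Mrps5, and leaving out both arrays numbered 1 gave -0.07 for Mrps16. Leaving out 1 array gave -0.08 to 0.19 for Mrpl22, -0.01 to 0.32 for Mrpl37, -0.19 to 0.51 for Mrpl44, -0.16 to 0.22 for Mrps12, -0.05 to 0.26 for Mrps22, -0.10 to 0.35 for Mrps6, -0.48 to 0.25 for Rpl10l, -0.43 to 0.03 for Rpl39l, -0.30 to 0.09 for Rpl3l and -0.12 to 0.13 for Rplp0. Signal near background limits Rpl3l. Mrpl22 (145.9 to 228.0) and Rpl39l (142.5 to 281.4) also lay around the near-background level of 201.5 to 224.1, and Mrps12 (191.6 to 323.9) reached it. Having 3 arrays a group limits all of these genes, and why their signs changed was not tested.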
